A study of Mus musculus with 2 samples.

Results

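Transporters of the Slc22, Slc17, Slc13, Slc34, Slc5 and Slco families were compared between wild-type (WT) and Gata2-deleted (CKO) collecting duct preparations of mouse kidney. They were taken by gene name from the array design, leaving out Slc5a3. This gave 60 genes with 79 probes, of 30198 gene names on the array. The rule used names alone. A probe passed the limit of background in WT for 39 of these genes and in CKO for 32, and for no gene in CKO alone. Of the 37 genes with a difference or a bound, 3 were at least 2-fold lower in CKO, namely Slc13a1, Slc5a10 and Slc5a9, and 0 were at least 2-fold higher. Over all 18798 genes with a value, 2.86% were at least 2-fold lower and 1.5% at least 2-fold higher. Both directions occurred, with 23 lower and 14 higher, against 42.5% lower over all genes with a value. Of the 23 lower members 5 were bounds of genes seen in WT alone, which could only be lower. The sugar cotransporters of the Slc5 family were lower throughout on the array scale used, 2 of the 5 by bounds that could only be lower. The organic anion and urate transporters Slc22a6 and Slc22a12 were higher. Scaling on the spike-in transcripts, RNAs added to each labelling, turned that direction: all 37 were then lower.

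These carriers handle small organic solutes, sulfate, phosphate and sugars. In kidney they are best known from the proximal tubule, where apical carriers reclaim filtered glucose, phosphate, sulfate and dicarboxylates, and where basolateral organic anion and cation transporters take up drugs and metabolites from blood for secretion. The collecting duct lies at the other end of the nephron and is not known for most of them. Some family members work elsewhere: in lysosomes, synaptic vesicles, lung, testis, or in many cells.

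Each group was 1 one-colour array of RNA from cells bound by Dolichos biflorus agglutinin (DBA), a lectin that marks collecting duct epithelium, on magnetic beads. The WT array is labelled wild type, with no transgene named. The CKO array comes from mice with the genotype Gata2flox/-::Pax8-rtTA::Tet-Cre, so that 1 Gata2 allele was null in every cell and the other was floxed. Pax8-rtTA acts along the renal tubule, proximal tubule included, and is not limited to the collecting duct. Doxycycline solution was fed for 4 weeks from an age of 4 weeks, and both groups were 8 weeks old and of mixed sex. The study design counts 3 mice of each genotype and the array names describe mixtures, but pooling of RNA is not stated outright. The doxycycline protocol is given for both groups. With 1 array per group there was no replicate check, no test was possible and no p-value is given.

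Signals are given in percent of the 75th percentile of their own array, a processed signal of 314 for WT and 250.1 for CKO. Differences are log2 values, CKO minus WT, with the spot error of the scanner software, which covers the spot and not mice, purification or labelling. Well above background is the call of the scanner software. Signals of different probes were not ranked, because probes differ in affinity. Where only the WT signal of a probe passed the limit of background, the difference is a lower bound on the fold. It is taken against the lowest signal called well above background, or the dim signal itself if higher. In the latter case the bound is the plain ratio of the signals. Such a bound could only be lower in CKO, since one under 1-fold counted as no value. Different probes of 1 gene differed with a pooled standard deviation of 0.27 over 5309 genes.

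The labelled cell type was well represented. All 9 principal cell genes listed, among them the water channel gene Aqp2, and all 8 intercalated cell genes were well above background on both arrays. Proximal tubule genes outside the transporter families were present too: 33 of 37 in WT and 32 in CKO, with Slc7a13, Slc6a20a, Slc6a20b and Cyp2e1 well above background on neither. Their summed signal was 6300% of the 75th percentile in WT and 5154% in CKO. For the principal cell genes, read from other probes and so not to be set against these levels, it was 103152% and 87553%. Of 33 such proximal tubule genes with a value 22 were lower in CKO, with a median of −0.23. Over all genes with a value 42.5% were lower, and the median was 0.05. In such preparations fewer cells of a type and less RNA per cell cannot be told apart. The part of proximal tubule cells in the transporter differences was not tested. Gata2 itself was lower by 0.37 and 0.32 at its 2 probes, which says nothing of the deletion if they lie outside the deleted exons. Of the sex-linked genes, Xist was at 0.10, with other probes between −0.05 and 0.55, Ddx3y at −0.17, Kdm5d at −0.02 and Eif2s3y at 0.56. Uty was seen in WT alone, with a bound of 1.06-fold. Their part in the differences was not tested.

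The probes decide what each value can say, so those on which the results turn are shown first. Of the 79 probes 9 were placed by the files across an intron, on mm9, so that their ends lie in different exons, and 3 of these were well above background on both arrays. They are shown in full, 5′ to 3′, because a signal there comes from spliced RNA. The Slc22a12 probe spans 1589 bases on chromosome 19, from 6538783 to 6540371, the Slc22a17 probe 315 bases on chromosome 14, from 55526424 to 55526738, and the Slco4c1 probe 2135 bases on chromosome 1, from 98715632 to 98717766, all on the minus strand.
Slc22a12: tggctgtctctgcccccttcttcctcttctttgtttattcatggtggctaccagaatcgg
Slc22a17: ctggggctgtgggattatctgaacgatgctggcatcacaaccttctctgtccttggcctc
Slco4c1: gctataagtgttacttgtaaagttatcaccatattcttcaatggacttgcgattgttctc

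Each member probe was compared with every other probe of the array for a shared run of at least 20 bases on either strand. Probes of different genes shared one in 1 pair, Slc22a5 and Slc22a21, which encode carnitine transporters and lie close together on chromosome 11. Their longest shared run was 33 bases. In the following 30-base stretches, from position 18 of the Slc22a5 probe and position 16 of the Slc22a21 probe, the capitals mark the start of that run.
Slc22a5: aagaaatgaaTGAGTCTCTTGAACAAGCAG
Slc22a21: agaaatgaatTGAGTCTCTTGAACAAGCAG
RNA of one gene could thus bind the other's probe, and the identity of both signals is uncertain. The second Slc22a5 probe shared no such run.

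Detection differed between families. All 3 Slc34 genes and 13 of 19 Slc22 genes were well above background on both arrays, as were 5 of 9 Slc17 genes, 5 of 10 Slc5 genes, 5 of 14 Slco genes and 1 of 5 Slc13 genes. The 7 genes found on the WT array only were Slc13a3, Slc17a2, Slc5a9, Slc5a11, Slco1a4, Slco1a5 and Slco1a6. Over all gene names 2.94% were on the WT array only and 1.3% on the CKO array only, and 58.6% on both. The 8 member probes seen on the WT array only were all dim there, with processed signals from 13.5 to 30.7, against a lowest signal called well above background of 12.04 for WT and 11.6 for CKO. Their CKO signals ran from 2.49 to 14.0. Of these 7 genes Slc13a3, Slc5a9 and Slc5a11 were furthest above the limit, and the WT array was the brighter of the 2 overall. The 40 probes well above background on both arrays had signals from 22.4 to 3699 in WT, with a median of 137, and from 19.0 to 2275 in CKO, with a median of 78.8.

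**Figure D1:**
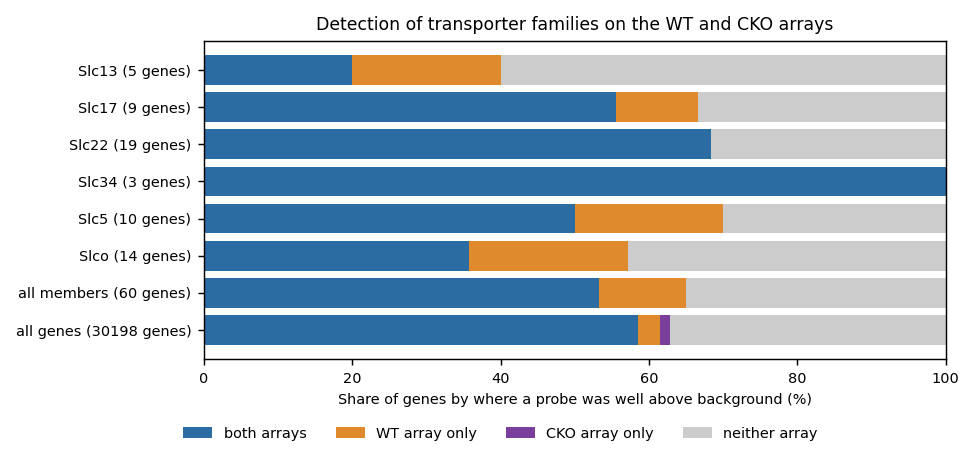
Share of genes in percent by where a probe was well above background, for each transporter family, all 60 members and all 30198 gene names. The orange parts (WT array only) lie in Slc13, Slc17, Slc5 and Slco, the Slc22 and Slc34 bars have none, and no member was on the CKO array only.

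Of the organic cation transporters, which bring positively charged drugs and amines into cells, Slc22a2 and Slc22a3 were not well above background on either array.

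All 4 carnitine and zwitterion transporters were measured on both arrays, and they divided. Slc22a4, which carries ergothioneine, was at 19.4% in WT and 11.0% in CKO, a difference of −0.82 ± 0.25. Slc22a16, a carnitine transporter known from testis, was at 32.9% and 23.2%, a difference of −0.50 ± 0.22. Slc22a5, the main carnitine carrier of the body, was at 122% and 124%, a difference of 0.02 ± 0.20. Its other probe, the one that shares the run with Slc22a21, was at 56.0% and 62.5%, and the Slc22a21 probe was at 52.5% and 61.4%. Their differences were 0.16 ± 0.21 and 0.23 ± 0.21. After normexp, whose offset shrinks differences of dim probes, Slc22a4 came to −0.13 and Slc22a16 to −0.15. No spot error was computed on that scale. The Slc22a5 values stayed within their spot errors on the 75th percentile scale, where Slc22a4, its neighbour on chromosome 11, was lower.

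Organic anion transporters carry drugs, toxins and urate. Slc22a6, the p-aminohippurate carrier, was at 99.2% in WT and 136% in CKO, a difference of 0.46 ± 0.20. Slc22a12, the urate transporter, was at 295% and 372%, a difference of 0.33 ± 0.20. Slc22a13, a carrier of nicotinate and urate, was dim at 7.13% and 9.39%, a difference of 0.40 ± 0.31. These 3 were higher in CKO on the 75th percentile scale, but with the spike-in transcripts set equal they came to −0.09, −0.21 and −0.15. Slc22a8, which takes up anionic drugs beside Slc22a6, was at 22.03% and 18.0%, a difference of −0.29 ± 0.23 that was 0.04 after normexp background correction. The remaining 2 probes of Slc22a8 and the second of Slc22a6 were well above background on neither array, so each gene rests on 1 probe. Slc22a7, Slc22a19 and Slc22a20 were not detected.

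Of the other Slc22 genes, Slc22a17 encodes the receptor for lipocalin-2, known from the distal nephron. Its exon-crossing probe was at 246% in WT and 199% in CKO, a difference of −0.31 ± 0.20, and its second probe gave −0.26. Slc22a23, an orphan transporter, gave −0.23 ± 0.20 and −0.29 at its probes. Slc22a18, of an imprinted region of chromosome 7, was at 164% and 189% by one probe and at 13.6% and 15.8% by the other, with the same difference of 0.21 at both. Slc22a15 gave 0.11 and 0.08, and Slc22a14, known from testis, was not detected. In each of these genes both probes gave nearly the same difference, and none reached 0.4 in size.

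The Slc17 genes of kidney, liver and gut carry organic anions, urate and phosphate. Slc17a1 was at 13.3% in WT and 15.2% in CKO, a difference of 0.18 ± 0.25. Slc17a4, known from intestine, was at 10.3% and 14.4%, a difference of 0.48 ± 0.26, and −0.07 with spike-in scaling. Slc17a2 passed the limit in WT alone, at 5.28%, with 5.55% in CKO, and no fold is given. Both probes of Slc17a3 were below the limit. Of the lysosomal and vesicular members, Slc17a5, which exports sialic acid from lysosomes, was at 63.0% and 57.8%, a difference of −0.12 ± 0.21. The vesicular nucleotide transporter Slc17a9 was at −0.01 ± 0.26 and the vesicular glutamate transporter Slc17a8 at 0.42 ± 0.25 by 1 of its 2 probes, while Slc17a6 and Slc17a7 were not detected. No member of this family was 2-fold apart in either direction.

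On the 75th percentile scale the largest difference lay among the sulfate and dicarboxylate transporters. Slc13a1, the apical sodium sulfate cotransporter, was at 27.8% of the 75th percentile in WT and 7.61% in CKO, a difference of −1.87 ± 0.29. That rests on 1 probe, at 24038378 to 24038437 of chromosome 6 (mm9), about 64.1 Mb from the Gata2 probes on the same chromosome. The last 30 of its 60 bases are given here with those of the Slc5a10 probe, since these 2 probes carry the largest differences measured.
Slc13a1: aggacaagtttaaattacaatagctacaag
Slc5a10: caggaccaccttccttcctgggttggacat
A second Slc13a1 probe, taken from another transcript record, was well above background on neither array, with processed signals of 3.04 and 2.91 against 87.4 and 19.0 at the probe used. The difference of Slc13a1 came to −0.49 after normexp correction with an offset of 50. Slc13a3, the basolateral dicarboxylate carrier, was at 7.38% in WT and 5.62% in CKO, not well above background there. Its bound of 1.32-fold is the plain ratio of these signals. On the log2 scale it is −0.395, within the spot error of 0.402. Slc13a2, Slc13a4 and Slc13a5, carriers of citrate, succinate and sulfate, were not detected. Slc13a1 was thus lower, Slc13a3 was within its spot error, and the CKO array showed only Slc13a1.

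The sodium phosphate cotransporters differed little. Slc34a1, the main phosphate carrier of the proximal tubule, was at 167% in WT and 147% in CKO, a difference of −0.18 ± 0.20. Slc34a3, its apical companion, was at 36.0% and 38.7%, a difference of 0.10 ± 0.21. Slc34a2, known from lung and intestine, was at 15.5% and 17.3% by 1 of its 2 probes, a difference of 0.16 ± 0.23. All 3 differences were smaller than their spot errors. All 3 were negative with spike-in scaling, as was every member with a value.

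All 5 sodium sugar cotransporters were lower in CKO, under every processing tried that gave them a value. Slc5a1 was at only −0.0069 after normexp. Slc5a9 and Slc5a11 had bounds, which could only be lower. With no filter on dim probes, where no bound is used, they were at −1.17 and −0.63. Both values use CKO signals not well above background, and that of Slc5a11 equals its bound. Slc5a10, a mannose and fructose carrier of kidney, was at 67.0% in WT and 20.5% in CKO, a difference of −1.71 ± 0.22, and at −0.99 after normexp. Slc5a9, another mannose and fructose carrier, was on the WT array only at 9.76% and at least 2.11-fold lower. Its other probe, at 4.79% in WT, gave a bound of 1.04-fold, so the 2-fold bound rests on 1 probe. Slc5a11, a myo-inositol carrier, was at 7.54% in WT and 4.86% in CKO, not well above background there. Its bound of 1.55-fold is the plain ratio, −0.63 ± 0.42 on the log2 scale. The glucose cotransporters were closer to equal. Slc5a2, which reclaims most filtered glucose, was at 78.0% and 65.8%, a difference of −0.24 ± 0.21. Slc5a1, which takes up the rest, was at 31.6% and 27.2%, a difference of −0.22 ± 0.21, with −0.40 at its other probe. By the probes used, the difference thus ran from near the spot error in both glucose carriers to over 3-fold in Slc5a10.

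In the rest of the Slc5 family Slc5a12, a sodium lactate cotransporter, was at 50.9% in WT and 26.8% in CKO, a difference of −0.93 ± 0.21, and at −0.56 after normexp. The vitamin transporter Slc5a6, expressed in many tissues, was at 84.8% and 97.9%, a difference of 0.21 ± 0.20. Slc5a8, the other lactate carrier, the iodide carrier Slc5a5 and the choline carrier Slc5a7 were not detected. Counting both groups, 6 of the 7 Slc5 genes with a value were lower, 2 of them by bounds that could only be lower. Over all genes with a value 42.5% were lower. With spike-in scaling all 7 Slc5 genes were lower.

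The Slco1 genes encode carriers of bile salts, steroid conjugates and thyroid hormones and lie in 1 cluster of chromosome 6. None of the 6 passed the limit of background in CKO. In WT Slco1a4, Slco1a5 and Slco1a6 did, at 4.30%, 5.11% and 5.02%, against a limit of 3.83%. The bounds were 1.11-fold for Slco1a5 and 1.09-fold for Slco1a6, and Slco1a4 allows none. Slco1a1, known from the proximal tubule of male mice, was below the limit by both of its probes. The cluster thus showed no signal far enough above the limit to measure a difference.

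Of the other Slco genes 5 were well above background on both arrays. Slco3a1, a carrier found in many tissues, was at 1177% in WT and 910% in CKO, a difference of −0.37 ± 0.20. Slco2b1 was at 248% and 177%, a difference of −0.49 ± 0.20, and Slco4a1 at 697% and 674%, a difference of −0.05 ± 0.20. Slco4c1, a basolateral carrier of the kidney, was at 45.1% and 35.8%, a difference of −0.33 ± 0.21, with −0.46 at the exon-crossing probe. These were lower or near 0. Slco2a1, the prostaglandin transporter, depended on the probe. One probe was at 31.2% in WT and 36.2% in CKO, a difference of 0.21 ± 0.21, and the other at 42.2% and 17.9%, a difference of −1.24 ± 0.22. Both probes lie on the plus strand of chromosome 9 (mm9), the first at 102989049 to 102989108 and the second at 102990034 to 102990093, and their last 30 bases are given in that order because the gene's direction turns on them.
Slco2a1 first: ctttcccccttcagagacgcgtccggaatt
Slco2a1 second: tccaccaatctcgcaaacaatgaacgtcaa
Slco6b1, Slco6c1 and Slco6d1, known from testis, were not detected.

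**Figure D2:**
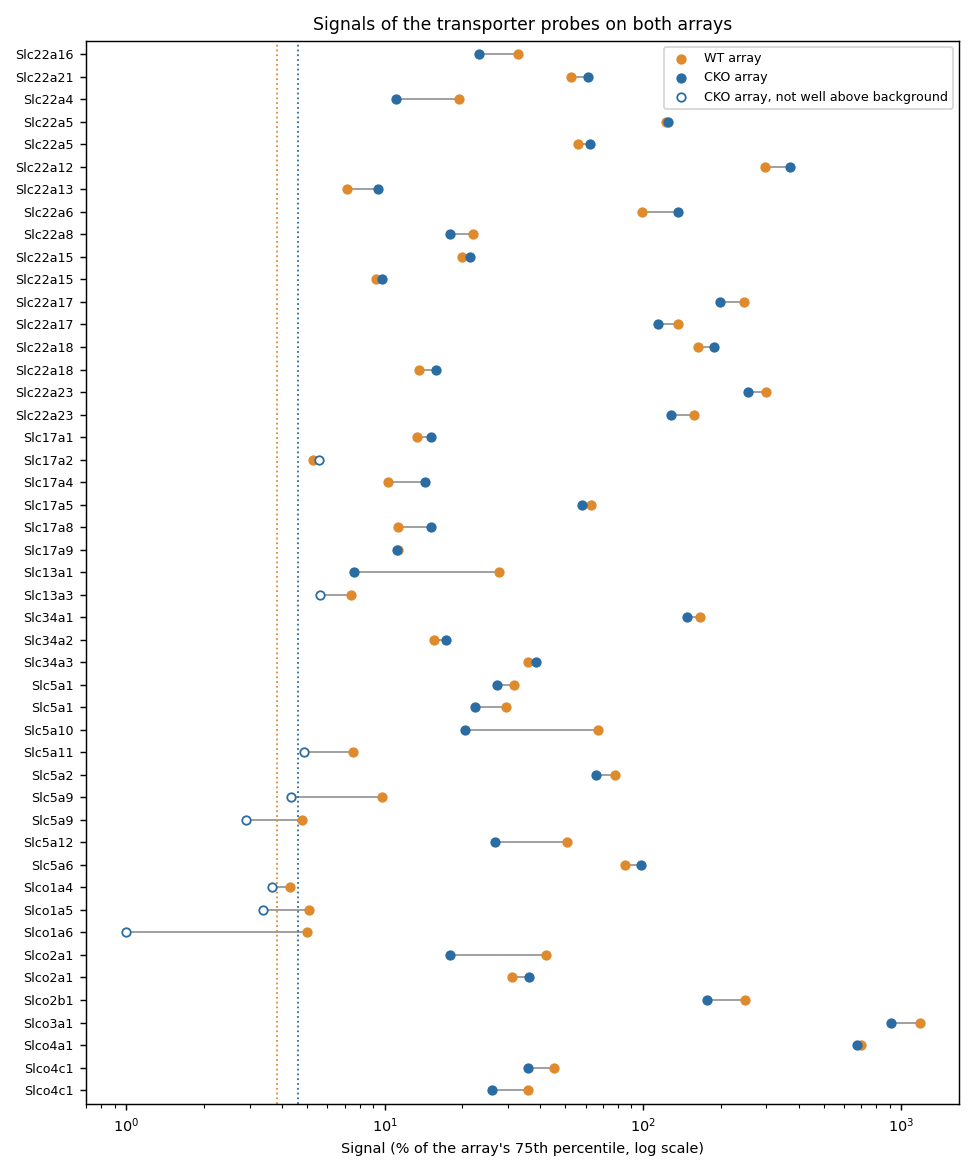
Signals of member probes that passed the background limit on either array, in percent of the array's 75th percentile on a log axis, with WT in orange and CKO in blue joined by a line. Open circles are CKO signals not well above background, dotted lines the lowest signal called well above background on each array, and the longest line between 2 filled points is that of Slc13a1.

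Agreement between probes was checked in the 18 genes with 2 or more. In 8 of them 2 probes were well above background on both arrays, and in 7 of these the differences lay within 0.2 of each other, the exception being Slco2a1 with a range of 1.45. In 6 genes only 1 of the probes gave a difference or a bound. All of the genes at least 2-fold lower had either 1 probe or a second one that did not show it. Repeated spots of 1 probe had a median standard deviation of the difference of 0.17 over 31 probes with WT signals under 100.

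**Figure D3:**
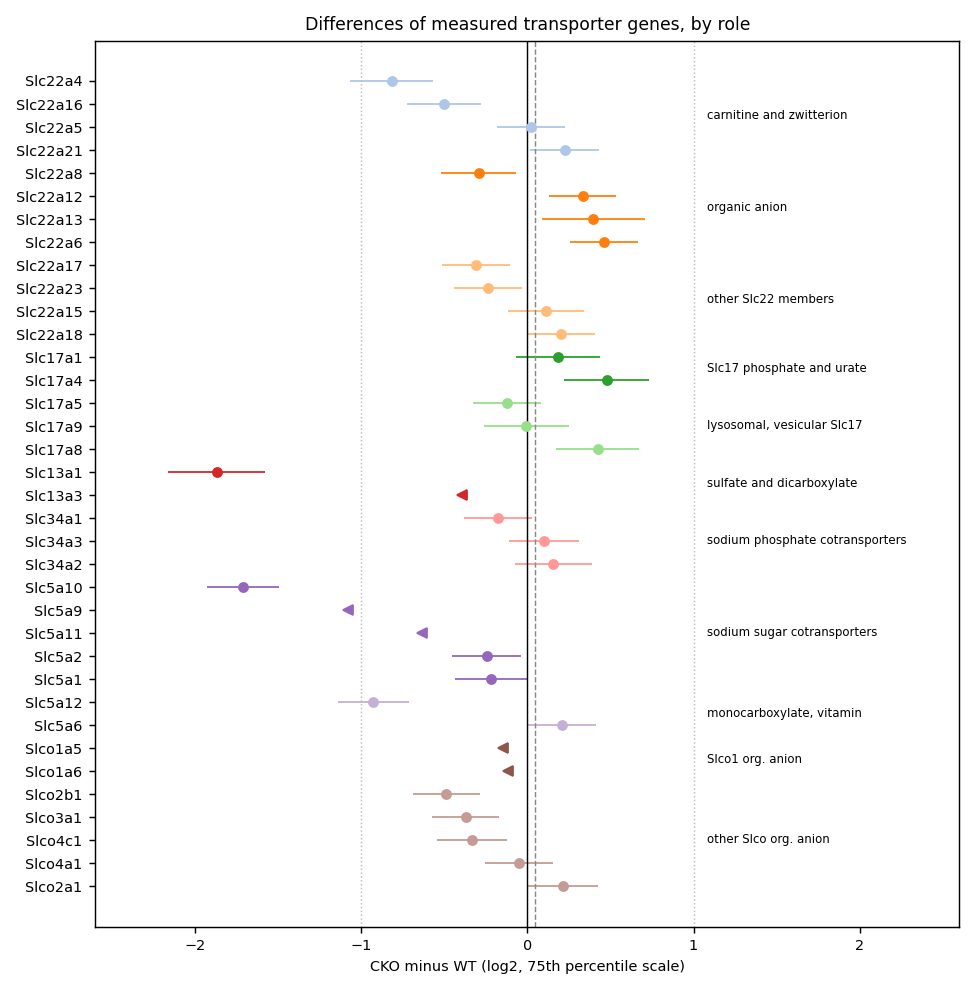
Differences of measured transporter genes, CKO minus WT on the log2 scale, in order of role. Circles with bars show the difference and the spot error, triangles bounds for genes on the WT array only, dotted lines 2-fold and the dashed line the median of all genes. Slc13a1 and Slc5a10 lie apart from the others, and no gene reaches the 2-fold line on the right. With spike-in scaling all values are below 0.

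Over the 37 genes with a value the median difference was −0.15, against 0.05 over all genes, and 23 were below 0, or 62.2%, against 42.5% of all genes. Bounds made up 5 of the 37, all of which could only be lower, and 1114 of all 18798 genes. Of the 32 measured on both arrays 18 were lower and 14 higher. Their median was −0.09, and 2 of them were at least 2-fold lower, against 0.05 and 2.43% over all genes so measured. A list of members known from the proximal tubule held 26 of the 60 genes. Of these 19 had a value, with a median of −0.22, of which 12 were lower, 2 of them at least 2-fold. The other members held 18 genes with a value, with a median of −0.09, of which 11 were lower, 1 of them at least 2-fold. These medians include 2 and 3 bounds. Over genes measured on both arrays they were −0.22 for the proximal tubule members and −0.006 for the others. No test of that difference was possible.

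Genes that work beside these carriers were described from lists. Of 8 efflux transporter genes with a value, 3 were at least 2-fold lower, against 2.86% of all genes with a value. Slc47a1, which passes organic cations into urine, was at 71.6% in WT and 26.4% in CKO, a difference of −1.44 ± 0.22, with −1.07 at its other probe. Abcg2, which exports urate and drugs, was at −1.15 ± 0.21 and −1.34. Abcb1b was at −1.02 ± 0.34, with −0.07 at its other probe. Abcc1 was at 0.51 and Abcc2, the apical anion exporter, was on the WT array only, with a bound of 1.05-fold. Both probes of Slc47a1 and of Abcg2 were thus lower by more than 2-fold, unlike those of Abcb1b.

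Against 2.86% of all genes with a value, 1 of 15 scaffold, regulator and exit carrier genes with a value was at least 2-fold lower. That was Hnf4a, a transcription factor of proximal tubule identity, which was on the WT array only at 13.7% and at least 2.96-fold lower in CKO. Pdzk1, a scaffold that holds apical transporters, was at −0.92 ± 0.21, and Pdzk1ip1, which binds it, at −0.71. Slc9a3r2, a scaffold of the sodium proton exchanger, was at −0.57. The glucose exit carrier Slc2a2, named after its values were seen, was at −0.06 ± 0.23 by one probe and −2.02 by another. The other members of this list lay within 0.6 of 0 by the probe used.

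Among the 33 proximal tubule genes outside these families, 6 were at least 2-fold lower and 1 at least 2-fold higher. Over all genes with a value the shares were 2.86% and 1.5%. The bicarbonate cotransporter Slc4a4 was at −3.12 ± 0.33, though its other probes gave −0.99 and −0.45. The endocytic receptor Lrp2 was at −1.58, with other probes between −1.20 and −0.26, and Cyp4b1 was at −1.34. The 1 gene at least 2-fold higher was Mme, the neutral endopeptidase, named after its value was seen, at 1.06 with 0.58 at its other probe. Both directions thus occurred in the list as in the transporters. The lists of macrophage, podocyte, endothelial, and fibroblast and pericyte genes had medians of −0.80, −1.21, −0.31 and −0.59, that of red blood cell genes one of −1.30, that of thick ascending limb and loop genes one of 0.49 and that of intercalated cells one of 0.85. That of principal cell genes was −0.28, with 8 lower and 1 higher, and that of distal convoluted and connecting tubule genes 0.07. The part of these cell types in the transporter differences was not tested.

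**Figure D4:**
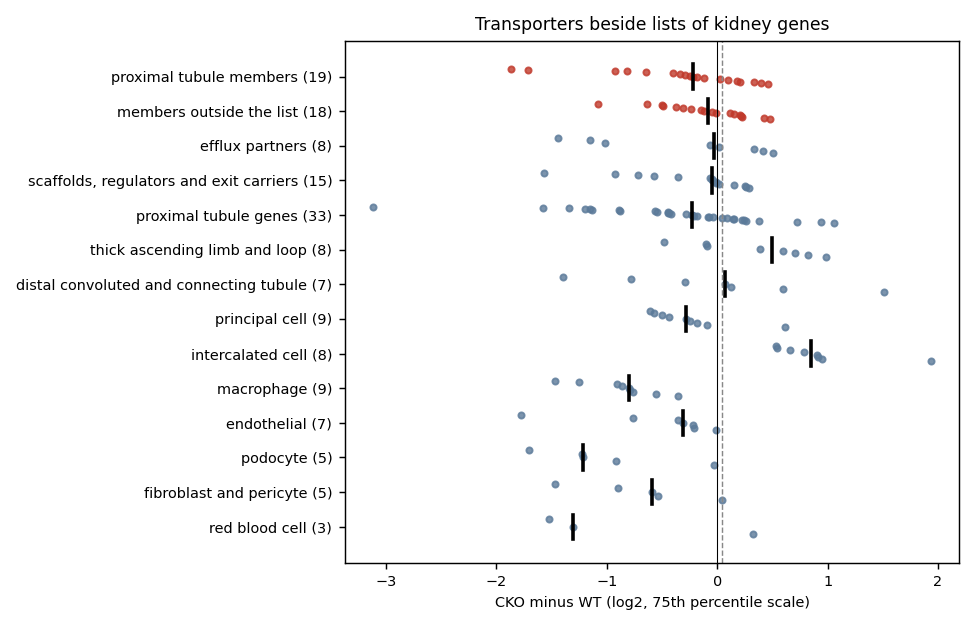
Differences of the member genes (red) and of genes of each other list (blue), CKO minus WT on the log2 scale, bounds included, with the number of genes in brackets. Black bars are list medians and the dashed line the median of all genes. The medians of the members and of the proximal tubule genes lie between 0 and −0.25, above those of macrophage and podocyte genes. Spike-in scaling moves every value by −0.55.

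The promoters of the members were searched for words bound by GATA factors in the 250 bases before the start site, on both strands, in RefSeq sequences of GRCm38.p6. Of the 60 members 50 had an entry, with 60 promoters. Slc13a1 and Slc5a9, both at least 2-fold lower in CKO, had none. The GATA words, AGATA or TGATA followed by A or G, were in 26.7% of these and in 26.5% of all 32851 promoters. Both shares were thus close, and nothing is drawn from them about binding.

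**Figure D5:**
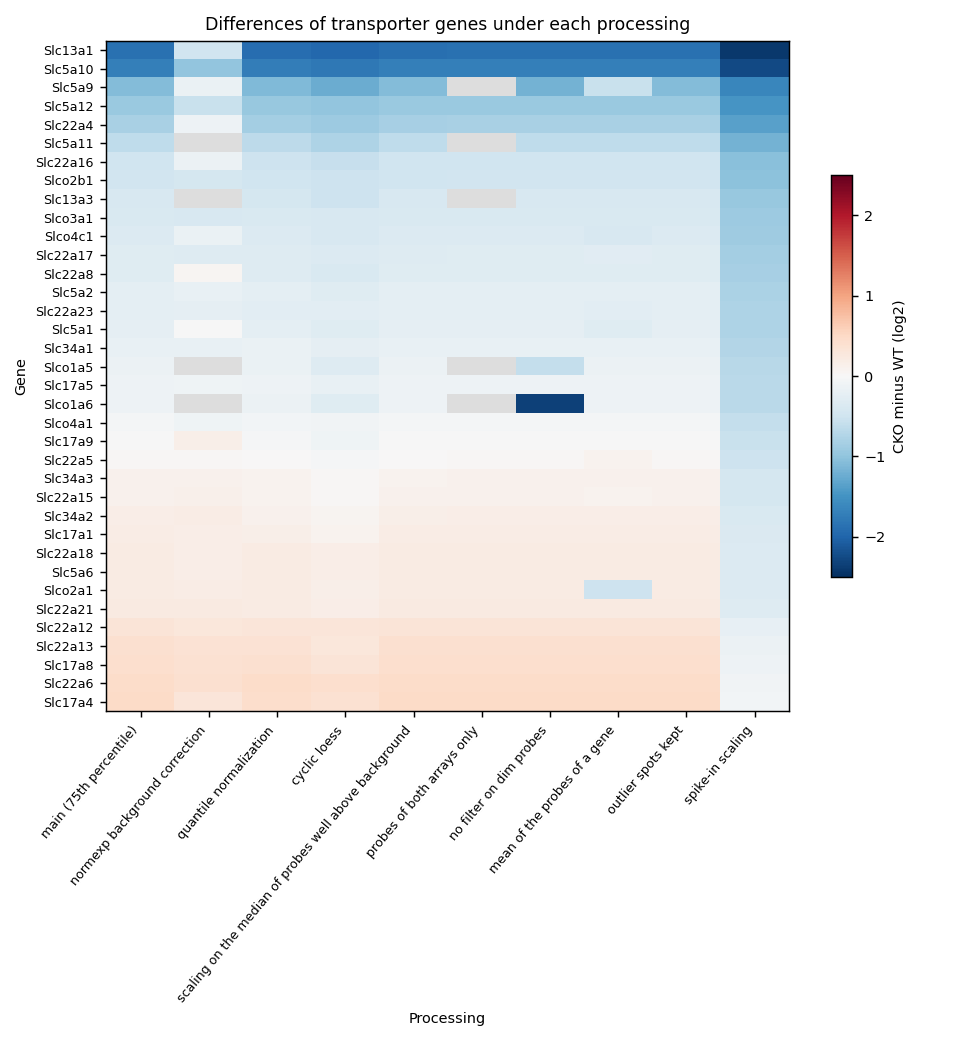
Differences of member genes (rows) under each processing (columns), CKO minus WT on the log2 scale in colour, with grey where a processing gave no value. Slc13a1 and Slc5a10 are lowest in nearly every column, normexp correction pales several dim genes that are lower in CKO, and every value is negative in the spike-in column.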

How the data were processed

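The deposited files hold, per the file headers, spot intensity from Agilent Feature Extraction 10.7.3.1, background-subtracted and detrended, with probes placed on mm9. RNA (50 ng per array, per the labels' protocols) was labelled with Cy3. Both arrays had 43379 non-control spots; 66 (WT) and 73 (CKO) outlier spots were left out and 0 were saturated. The log2 processed signal was set to the 75th percentile of each array. Each gene was read from 1 probe, the brightest on average of those that passed the background limit on either array. A bound under 1-fold counted as no value. Genes were counted by a fixed 2-fold. Any normalization between arrays by the authors is not used here.

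The genes and lists were chosen with earlier results of these data known. Members with a probe well above background on at least 1 array are named; of the other lists, up to 4 of largest difference, and Slc47a1, Abcc2, Pdzk1 and Hnf4a, besides Gata2 and the sex-linked genes. A few genes that enter the counts, and promoter motifs other than GATA, are not reported here. Members kept the names in the files. A few further probes that RefSeq places in Slc22 carry other names there and were not counted.

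Alternatives were normexp with an offset of 50, quantile and cyclic loess normalization, scaling on the median of bright probes, no filter, probes of both arrays only, averaging over probes, and keeping outlier spots; spike-in scaling was added after seeing the data. The counting of 2-fold calls was checked on simulated arrays. R 4.3.3, limma 3.58.1, Python 3.11.15, numpy 2.4.6 and pandas 2.3.3 were used.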

Additional observations from a re-analysis of the deposited data

How the results depend on the processing

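No paired analysis was possible because each group had 1 array. The 3 members at least 2-fold lower became 0 with normexp, 7 with no filter on dim probes and 9 with spike-in scaling, and the 0 at least 2-fold higher became 2 with no filter; both counts were within 1.5 times under the other settings. The median of the members, −0.15, was −0.0069 with normexp, −0.22 with cyclic loess, −0.085 on probes of both arrays, 0.0061 with no filter and −0.67 with spike-in scaling. That of the proximal tubule members, −0.22, was −0.0069, −0.30 and −0.76 with normexp, cyclic loess and spike-in scaling. The median of all genes was then 0.07, −0.01 and −0.50. Spike-in scaling moved each difference by −0.55 and made all 37 members negative. Without it, 33 of the 37 kept 1 sign throughout, and Slc17a9, Slc22a5, Slc22a8 and Slco2a1 did not. The 33 include the 5 genes with bounds, whose sign could only be negative wherever a bound was used. A processing that gave no value was not counted against a gene. The offset of normexp shrinks differences of dim probes by its construction; the cause of the other shifts was not tested. Over all genes the split of higher and lower 2-fold calls was 282 and 538, but 206 and 642 with cyclic loess, 65 and 204 with normexp, 1214 and 1245 with no filter and 58 and 1642 with spike-in scaling. The number of arrays limits the precision.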

Other observations

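Probes that the files list under other names, and that RefSeq accessions place in the Slc22 family, were read apart from the members. The probe of Slc22a28 was at 8.49% of the 75th percentile in WT and 12.8% in CKO, a difference of 0.59. That of Slc22a30 was at 6.98% and 7.56%, a difference of 0.12. Both genes encode organic anion transporter relatives, and both were dim and higher in CKO on this scale, as were 3 of the 4 measured organic anion transporters. Of all 18798 genes with a value 10808 were higher. No spot error was computed for these probes, and spike-in scaling moved the member differences by −0.55. The probes of Slc22a22, Slc22a26 and Slc22a29 were well above background on neither array.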
